A study of Homo sapiens with 6 samples.

Results

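Cleavage and polyadenylation of pre-mRNA is carried out by a large complex, and the transcripts of 10 genes that encode its core were examined here in OVCAR3 cells treated with THZ531. The genes are CPSF1, CPSF2, CPSF3, CPSF4, FIP1L1 and WDR33, which encode subunits of the cleavage and polyadenylation specificity factor (CPSF), SYMPK, which encodes symplekin, and NUDT21, CPSF6 and CPSF7, which encode the subunits of cleavage factor I. They were chosen by gene symbol for the function of their products and not for a measured value, although earlier results of these data were known. They account for 10 of the 47577 loci in the expression table. All 10 passed the minimum for expression (10 normalized reads in 3 or more libraries), as did 17568 loci in all. OVCAR3 is an established line of high-grade serous ovarian carcinoma, and THZ531 covalently inhibits the transcriptional kinases CDK12 and CDK13. The polyadenylated RNA of 3 cultures that received the vehicle DMSO and of 3 cultures that received 200 nM THZ531 for 6 h was sequenced. The submitters describe them as biological repeats, and every value below comes from a single cell line, dose and time. The sample titles name THZ531, whereas the treatment field of the labels gives another compound of the series, THZ1, at 200 nM. The methods of the study also name THZ531, at 200 nM for 6 h.

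The 3′ end of almost every mRNA is made by cutting the nascent transcript and adding a poly(A) tail to the new end. Within CPSF, the polyadenylation specificity factor reads the AAUAAA signal through CPSF4 and WDR33, which are held on the CPSF1 scaffold, while FIP1L1 recruits the poly(A) polymerase. The cut is made by the endonuclease CPSF3, which forms the cleavage module with its catalytically inactive relative CPSF2 and the scaffold protein symplekin. Cleavage factor I consists of NUDT21, which binds UGUA motifs upstream of the cleavage site, and of the larger subunits CPSF6 and CPSF7, which bind RNA and help to recruit the rest of the machinery. CDK12 and CDK13 phosphorylate the C-terminal domain of RNA polymerase II during elongation, and this domain is a landing platform for the 3′ end processing factors.

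The ends of the transcripts are shown here because the proteins of this machinery recognize a signal near the end of a transcript. The values are reads of polyadenylated RNA on each gene, in which shortened and full-length transcripts were not separated. In the last 50 bases of the MANE Select transcript (GENCODE, hg38), 6 of the 10 genes held AATAAA and CPSF4 held the variant ATTAAA, whereas CPSF1, FIP1L1 and SYMPK held neither hexamer in this window. Among 13244 expressed genes with such a transcript, 67% held AATAAA in the window and 15.3% held only ATTAAA. The 30 bases around the hexamer are given below 5′ to 3′ on the strand of the gene, with the hexamer in capitals. They lie at chr7:99457337-99457366 on the plus strand for CPSF4, chr2:127701039-127701068 on the minus strand for WDR33, chr14:92172107-92172136 on the plus strand for CPSF2, chr2:9473056-9473085 on the plus strand for CPSF3, chr16:56429144-56429173 on the minus strand for NUDT21, chr12:69274318-69274347 on the plus strand for CPSF6 and chr11:61402740-61402769 on the minus strand for CPSF7. All are in the terminal exon.
CPSF4: acaatttttatgaaatggATTAAAgcttgt
WDR33: cacaaacagtgatctcaaAATAAAaattta
CPSF2: gtgctctagcaattgtgaAATAAAcagatt
CPSF3: tctacttttgttacctaaAATAAAatgcat
NUDT21: ttattttattgtcatttcAATAAAaaatat
CPSF6: tatttatcttgtattgaaAATAAAacaaac
CPSF7: ataggttgaaaattgtgtAATAAActtgat
The hexamer ended between 13 bases (CPSF4) and 22 bases (CPSF3) before the annotated transcript end. TGTA, the DNA form of the NUDT21 motif, occurred on the strand of the gene 2 times in the 100 bases upstream of the hexamer in CPSF3 and in NUDT21 itself and 1 time in CPSF6, and was not found there in the other 4 genes. CPSF4, the gene without AATAAA among these 7, showed the largest decrease of the 10 members (log2 fold change -1.26). CPSF2, which held AATAAA, followed at -1.03. Of the genes with neither hexamer, SYMPK fell (-0.49), while CPSF1 (0.18) and FIP1L1 (0.33) rose on the deposited scaling but not with the same total or RPL34. Both genes with 2 TGTA matches changed in opposite directions, CPSF3 downward and NUDT21 upward on the deposited scaling. With RPL34, NUDT21 was at -0.12 and did not pass the adjusted p. A link between these motifs and the changes was not tested.

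Several of these genes also share a promoter region with a neighbor on the other strand. For 5 of the 10 members (50%) the MANE start site lay within 1000 bases of the start of a gene transcribed the other way, compared with 1611 of 13244 expressed genes (12.2%). The pairs are CPSF4 with PTCD1, CPSF2 with NDUFB1, CPSF3 with ITGB1BP1, NUDT21 with OGFOD1 and CPSF7 with SDHAF2. Both genes fell in the pair of CPSF4 and in that of CPSF7, and the pair of NUDT21 had opposite directions on the deposited scaling. The stretches between the start sites are shown for the pairs of CPSF4, CPSF7 and NUDT21. They lie between the MANE start sites of both genes and come from RefSeq promoters (GRCh38.p14), on the strand of the member and 5′ to 3′, and capitals mark matches on either strand to TATAAA (the TATA box), CCAAT (the CCAAT box), CCGGAA (the ETS core), GCGCATGC (part of the NRF1 site) or ATGGCGG (the YY1 core).
CPSF4 to PTCD1, chr7:99438799-99438942, plus strand: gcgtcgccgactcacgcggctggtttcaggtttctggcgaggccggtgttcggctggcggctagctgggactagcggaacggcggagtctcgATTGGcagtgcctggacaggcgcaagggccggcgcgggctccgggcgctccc
CPSF7 to SDHAF2, chr11:61429976-61430123, minus strand: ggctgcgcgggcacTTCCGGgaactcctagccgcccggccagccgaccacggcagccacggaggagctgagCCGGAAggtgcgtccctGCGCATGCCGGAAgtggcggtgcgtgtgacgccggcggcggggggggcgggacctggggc
NUDT21 to OGFOD1, chr16:56451333-56451553, minus strand: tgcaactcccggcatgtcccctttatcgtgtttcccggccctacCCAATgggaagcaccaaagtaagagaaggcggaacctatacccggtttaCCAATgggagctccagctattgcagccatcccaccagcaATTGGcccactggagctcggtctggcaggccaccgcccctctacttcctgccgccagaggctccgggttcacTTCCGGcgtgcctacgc
In the deposited table the locus of CPSF4 starts further upstream and covers its whole stretch, and the loci of NUDT21, OGFOD1 and CPSF7 reach into theirs. The stretch of CPSF4 held 1 match, a CCAAT on the other strand, and was 71.5% G and C. The stretch of CPSF7 held 4 matches at 77% G and C, of which 3 were CCGGAA and 1 was GCGCATGC, whose last base overlaps the third CCGGAA. The stretch of NUDT21 held 3 matches to CCAAT and 1 to CCGGAA at 60.6% G and C. The stretch of CPSF3, which is not shown, held 1 match, a CCGGAA, at 70.4% G and C. That of CPSF2 reached beyond the promoter sequence used. Over the whole promoter windows, from 250 bases before to 50 after the start, of the 9 members other than CPSF1, TATAAA was found in 0 members and in 11.5% of 35116 RefSeq promoters. CCAAT was found in 4 members and in 34.6% of promoters, CCGGAA in 5 members and in 17.2%, GCGCATGC in 2 members and in 3.05%, and ATGGCGG in 5 members and in 5.55%. The 35116 promoters were not limited to expressed genes, and of the 2 entries for CPSF4 only the first was used. Such matches describe the sequence and are not measured binding sites.

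In each library, reads on a gene were divided by a size factor of that library, and the resulting normalized reads are the values given below. They are not corrected for gene length. Reads counted on genes ranged from 60146046 to 70986130 in DMSO and from 53054048 to 57953296 in THZ531, and the 10 members had at least 505.8 normalized reads in every library. All 9 markers of ovarian carcinoma cells examined (PAX8, WT1, MUC16, KRT7, KRT8, KRT18, EPCAM, CDH1 and ESR1) were above the minimum of 10 in every library. Of 11 markers of leukocytes, endothelium, fibroblasts, erythroid cells and neurons, 8 were at 10 or more in every library and CD3E was listed at 0 in all 6. The summed level of these 11 markers was between 2626 and 3161 in DMSO and between 4118 and 4389 in THZ531, and the part of this difference in the results was not tested. Most of the sum came from COL1A1 (mean 995 in DMSO and 2190 in THZ531) and COL3A1 (724 and 1080). VWF was also higher in THZ531 (89 and 144), while RBFOX3 was lower (450 and 257). PTPRC, CD68, PECAM1 and THY1 did not pass the adjusted p of limma, and DCN and HBB were not tested. The sum of the 9 ovarian markers was also higher, at 436033 to 446769 in DMSO and 555234 to 567623 in THZ531. Most of it came from KRT7 (130310 and 137921), KRT8 (153783 and 230529) and KRT18 (114489 and 154144). EPCAM and CDH1 were also higher, whereas PAX8 was 9.09-fold and MUC16 1.38-fold lower. WT1 and ESR1 did not pass the adjusted p of limma. Groups were compared with limma after adding 1 to each value and taking log2, and fold changes below are on that scale. Genes that passed both a 1.5-fold change and an unadjusted p of 0.05 were called regulated. A gene is said here to rise or fall when its Benjamini-Hochberg adjusted p over all 17568 loci was 0.05 or lower. In bulk RNA, fewer cells and less RNA per cell cannot be told apart.

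All 10 members differed between DMSO and THZ531 at an adjusted p of at most 0.05 (limma), as did 68.6% of all loci tested. On the deposited scaling they divided evenly. CPSF1, FIP1L1, WDR33, NUDT21 and CPSF6 rose (5 of 10, compared with 34.6% of all loci), and CPSF2, CPSF3, CPSF4, CPSF7 and SYMPK fell (5 of 10, compared with 34.1%). The increases depended on scaling. With all libraries given the same total, NUDT21 and CPSF6 still rose, whereas CPSF1 (log2 fold change -0.07), FIP1L1 (0.09) and WDR33 (0.07) no longer passed the adjusted p of limma. With scaling to RPL34 none of the 5 rose. CPSF1 fell, and FIP1L1, WDR33, NUDT21 and CPSF6 did not pass the adjusted p, with values of -0.16, -0.18, -0.12 and 0.06. CPSF4, CPSF2, CPSF7 and CPSF3 were called regulated (4 of 10, 40%), a share near the 39.5% of all loci. All 4 decreased (40%, compared with 23.9% of loci), and 0 of 10 members were called increased, compared with 15.7% of loci. The libraries of the groups did not overlap for any of the 10 members, as for 71.7% of loci. The median log2 fold change of the members was -0.16 and that of all loci tested was -0.01, with median absolute values of 0.52 and 0.50, so that the members moved about as far as a typical locus.

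**Figure D1:**
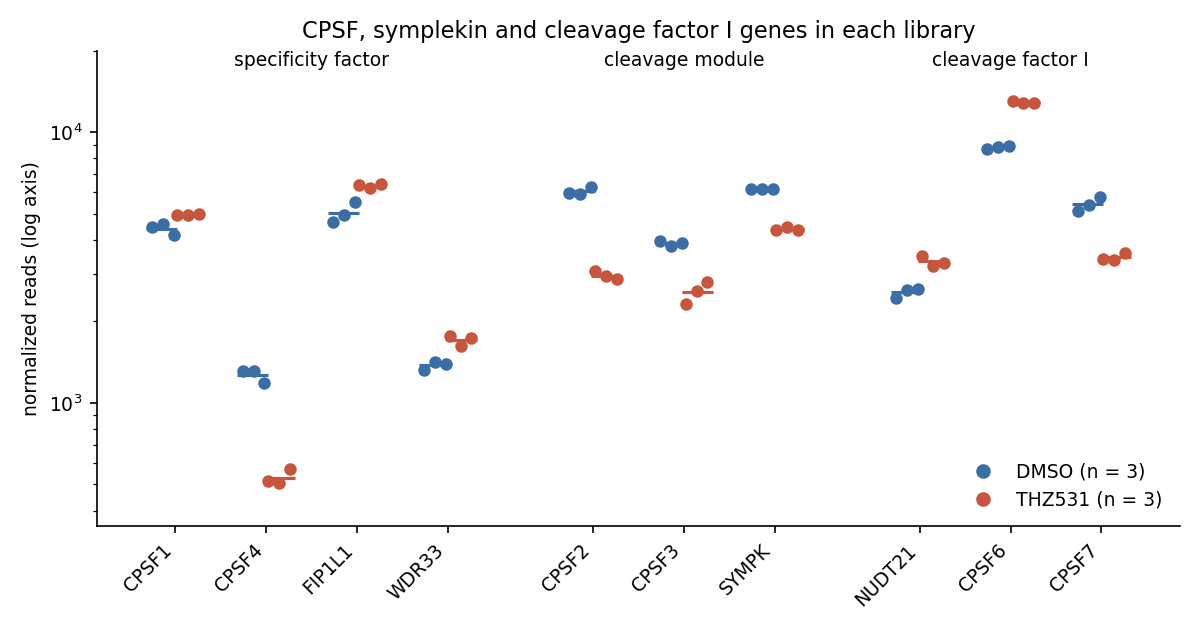
Normalized reads (log axis, not corrected for length) of the 10 genes in 3 DMSO and 3 THZ531 libraries, grouped by subcomplex; each point is a library and each line a group mean. The groups do not overlap for any gene, and CPSF4 shows the widest separation, from at least 1181 in DMSO to at most 567.7 in THZ531.

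Among the subunits of the polyadenylation specificity factor, CPSF4 fell and the other 3 rose on the deposited scaling, with the losses named above for CPSF1, FIP1L1 and WDR33 under other scalings. CPSF4, the zinc finger protein that binds the poly(A) signal (chromosome 7, 99433363 to 99457378, hg38), had 1316, 1307 and 1181 normalized reads in DMSO and 513.9, 505.8 and 567.7 in THZ531. Every THZ531 library was below every DMSO library, and the mean decreased from 1268 ± 75.7 to 529 ± 33.6 (SD, n = 3). This is 2.39-fold lower, with a log2 fold change of -1.26 (SE 0.08, 95% interval -1.43 to -1.09, limma adjusted p = 7.6e-10). It was the largest change among the 10 genes, and 11.3% of all loci had a lower log2 fold change. WDR33, the WD40 protein that contacts the same signal (chromosome 2, 127701027 to 127811171), had 1322, 1413 and 1393 normalized reads in DMSO and 1772, 1628 and 1732 in THZ531. The THZ531 libraries were all higher. The log2 fold change was 0.31 (SE 0.06, 95% interval 0.19 to 0.44, limma adjusted p = 0.00018), below the 1.5-fold threshold, and it was 0.07 under same-total scaling and -0.18 under RPL34 scaling, neither of which passed the adjusted p.

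FIP1L1, which binds U-rich RNA and poly(A) polymerase (chromosome 4, 53377637 to 53460862), had 4657, 4952 and 5505 normalized reads in DMSO and 6378, 6201 and 6415 in THZ531. Its DMSO libraries were more scattered than those of THZ531, with SDs of 431 and 115, and stayed below them. The log2 fold change was 0.33 (SE 0.05, 95% interval 0.22 to 0.44, limma adjusted p = 3.3e-05), with 0.09 under same-total scaling and -0.16 under RPL34 scaling, where the increase was lost in both cases. CPSF1, the scaffold (chromosome 8, 144393231 to 144409335), had 4451, 4584 and 4161 normalized reads in DMSO and 4965, 4950 and 4989 in THZ531. It showed the smallest change of the 10, with a log2 fold change of 0.18 (SE 0.04, 95% interval 0.08 to 0.27, limma adjusted p = 0.0022) that became -0.07 with the same total, which did not pass the adjusted p, and -0.32 with RPL34. The direction of CPSF1 therefore depended on the scaling, whereas CPSF4 decreased under each of the 3 other scalings tried, with log2 fold changes of -1.28, -1.50 and -1.75 for the upper quartile, the same total and RPL34.

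All 3 genes of the cleavage module fell, and did so under every scaling. CPSF2, the inactive relative of the endonuclease (chromosome 14, 92121969 to 92172145), had 5956, 5909 and 6279 normalized reads in DMSO and 3066, 2933 and 2866 in THZ531. No library of THZ531 came near the DMSO values, and the mean decreased from 6048 ± 202 to 2955 ± 102 (SD, n = 3), which is 2.05-fold lower (log2 fold change -1.03, SE 0.04, 95% interval -1.13 to -0.94, limma adjusted p = 1.3e-11). CPSF3, the endonuclease itself (chromosome 2, 9423651 to 9473101), had 3955, 3798 and 3896 normalized reads in DMSO and 2319, 2601 and 2790 in THZ531. The THZ531 libraries were lower but more spread, with an SD of 237 around a mean of 2570, compared with 79.5 around 3883 in DMSO. CPSF3 was 1.52-fold lower (log2 fold change -0.60, SE 0.06, 95% interval -0.72 to -0.47, limma adjusted p = 1.8e-07), just past the threshold of 1.5. Without THZ531 replicate 1, its lowest library, the log2 fold change was -0.53 and CPSF3 was no longer called regulated, although it still fell.

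SYMPK, which encodes the scaffold that joins the cleavage module to the other factors (chromosome 19, 45815410 to 45863147), had the most even DMSO values of the list. It had 6171, 6176 and 6188 normalized reads in DMSO and 4365, 4452 and 4344 in THZ531. The mean decreased from 6178 ± 8.53 to 4387 ± 57.6 (SD, n = 3), which is 1.41-fold lower (log2 fold change -0.49, SE 0.04, 95% interval -0.58 to -0.41, limma adjusted p = 1.1e-08). SYMPK was thus just below the 1.5-fold threshold, and it passed it under same-total scaling (log2 fold change -0.74) and under RPL34 scaling (-0.99). The median log2 fold change of the cleavage module was -0.60, compared with 0.25 for the polyadenylation specificity factor and 0.38 for cleavage factor I, and the latter medians moved with scaling as their members did.

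The subunits of cleavage factor I changed in opposite directions, with CPSF7 down under every scaling tried, and CPSF6 and NUDT21 up except with RPL34. CPSF7, the smaller of the alternative large subunits (chromosome 11, 61402649 to 61429983), had 5128, 5380 and 5772 normalized reads in DMSO and 3414, 3371 and 3576 in THZ531. The groups were well apart, and the mean decreased from 5427 ± 325 to 3454 ± 108 (SD, n = 3), which is 1.57-fold lower (log2 fold change -0.65, SE 0.05, 95% interval -0.75 to -0.55, limma adjusted p = 7.2e-09). CPSF6, the other large subunit (chromosome 12, 69239569 to 69274358), was the gene with the most normalized reads in the list, with 8666, 8839 and 8882 in DMSO and 13087, 12773 and 12794 in THZ531. All THZ531 libraries were higher. CPSF6 was 1.46-fold higher (log2 fold change 0.55, SE 0.03, 95% interval 0.48 to 0.62, limma adjusted p = 8.6e-10), the largest increase of the 10 genes but below the threshold for a regulated gene. With scaling to RPL34 its log2 fold change was 0.06 and did not pass the adjusted p.

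NUDT21, the subunit that reads UGUA (chromosome 16, 56429133 to 56451353), had 2443, 2619 and 2633 normalized reads in DMSO and 3498, 3205 and 3294 in THZ531. The THZ531 values were higher in all 3 libraries, with a log2 fold change of 0.38 (SE 0.05, 95% interval 0.27 to 0.49, limma adjusted p = 6.4e-06). It was -0.12 with scaling to RPL34 and did not pass the adjusted p.

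**Figure D2:**
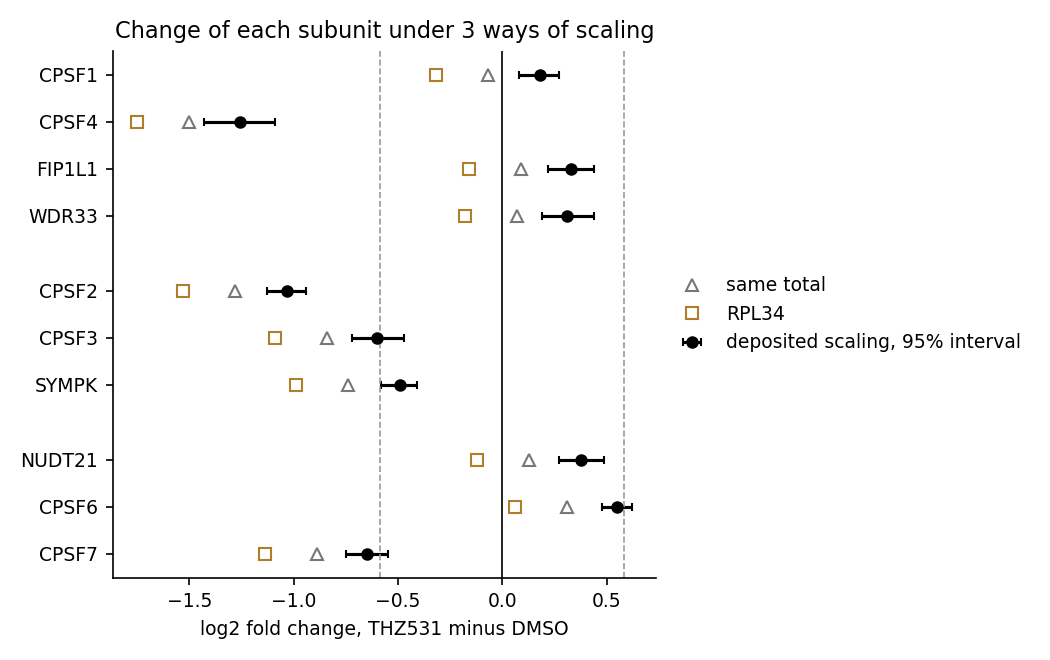
Log2 fold change of each gene, THZ531 minus DMSO, with the deposited scaling (filled circles, bars are 95% intervals from limma), under same-total scaling (triangles) and under RPL34 scaling (squares); dashed lines mark a fold change of 1.5. CPSF4, CPSF2, CPSF3, SYMPK and CPSF7 stay below 0 and CPSF6 above 0 with all 3, while CPSF1, FIP1L1, WDR33 and NUDT21 lie below 0 with RPL34, and CPSF1 also with the same total.

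Scaling shifted all loci together, by -0.24 on the log2 scale with the same total, -0.02 with the upper quartile and -0.49 with RPL34, the reference transcript of the qPCR assays of the study. Differences between members within a library do not depend on it. The log2 level of each member was therefore also expressed relative to the mean of the 10 members in the same library. On this relative log2 scale the largest positive difference was that of CPSF6, from 1.20 in DMSO to 1.98 in THZ531 (difference 0.78). It was followed by NUDT21 (difference 0.61), FIP1L1 (0.56), WDR33 (0.54) and CPSF1 (0.41), whereas the values of CPSF4 (-1.03), CPSF2 (-0.80), CPSF7 (-0.42), CPSF3 (-0.37) and SYMPK (-0.27) were negative. The reference mattered for some of them. Relative to the other members of the same subcomplex, CPSF3 (0.16) and SYMPK (0.32) were positive, and the difference of CPSF7 was -1.11. The 3 libraries of each group did not overlap for any of the 10 relative levels. The share of all loci without overlap on such a scale was not computed, so this count is not read as a result about the members. On the deposited scaling that share was 71.7%. A two-sided exact permutation test gave p = 0.1 for each, which is the smallest p that 3 libraries against 3 allow (Benjamini-Hochberg adjusted over the 10 members, 0.1). Such a difference describes unequal change between subunits, not which of them changed.

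Ratios between partners of the same subcomplex are given as a description because the pairs were chosen after their values were seen. Without correction for length, CPSF6 to CPSF7 was 1.69, 1.64 and 1.54 in the DMSO libraries and 3.83, 3.79 and 3.58 in the THZ531 libraries. Per kilobase of exonic length, CPSF6 was below CPSF7 in DMSO (means of 1336 and 1556) and above it in THZ531 (1957 and 990.5). The mean ratio of these alternative large subunits of cleavage factor I was 2.3 times higher in THZ531. CPSF7 to NUDT21 decreased from a mean ratio of 2.12 ± 0.07 to 1.04 ± 0.056 (SD, n = 3), whereas CPSF6 to NUDT21 moved only from 3.43 ± 0.1 to 3.87 ± 0.12. In the cleavage module, CPSF2 to SYMPK decreased from 0.979 ± 0.031 to 0.674 ± 0.025. CPSF3 to SYMPK was 0.629 ± 0.013 in DMSO and 0.586 ± 0.056 in THZ531, and its libraries overlapped. The reader of the poly(A) signal CPSF4 decreased relative to its partners. CPSF4 to WDR33 was 0.996, 0.925 and 0.848 in DMSO and 0.29, 0.311 and 0.328 in THZ531, and CPSF4 to CPSF1 decreased from a mean of 0.288 to 0.106. By contrast, FIP1L1 to CPSF1 had overlapping libraries, with 1.15 ± 0.15 in DMSO and 1.27 ± 0.019 in THZ531.

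**Figure D3:**
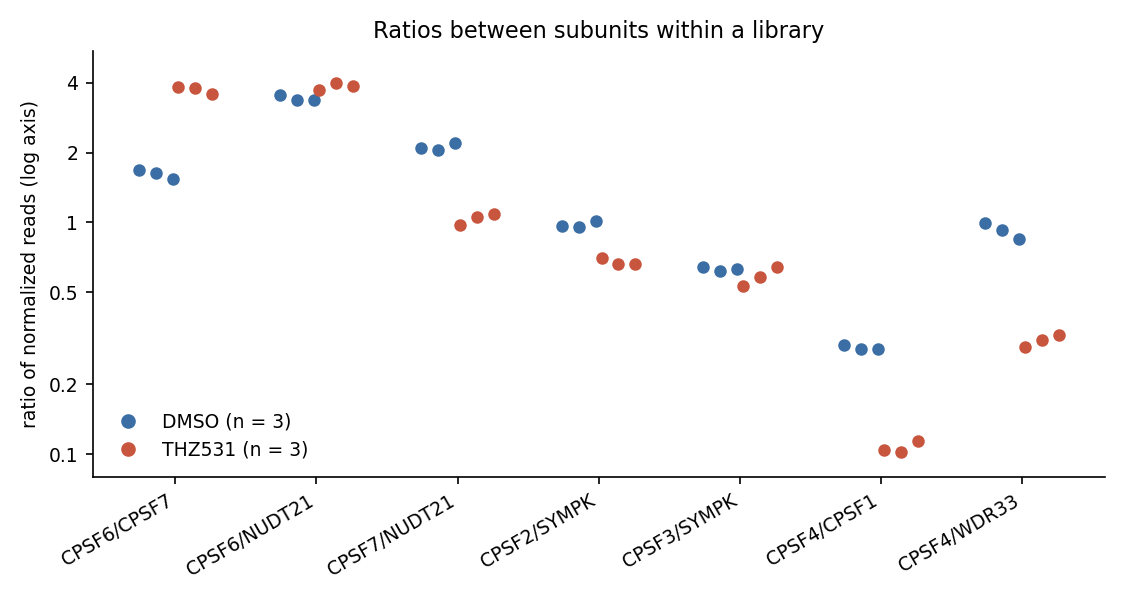
Ratio of normalized reads between 2 subunits in each library (log axis, not corrected for length), with 3 DMSO and 3 THZ531 libraries per pair. CPSF6/CPSF7 lies between 1.54 and 1.69 in DMSO and between 3.58 and 3.83 in THZ531, while CPSF3/SYMPK overlaps between the groups.

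To compare levels between genes, normalized reads were divided by the exonic length of the MANE transcript. Per kilobase, the highest level in DMSO was that of CPSF3 (1719 ± 35.2, SD, n = 3). CPSF7 (1556 ± 93.1), SYMPK (1515 ± 2.09) and FIP1L1 (1484 ± 127) followed, and their libraries overlapped, so that no order among these 3 genes was resolved. Below them, in normalized reads per kilobase, were CPSF6 (1336 ± 17.4), CPSF1 (981.9 ± 48.3), CPSF4 (695.7 ± 41.6), NUDT21 (583.8 ± 24.1), CPSF2 (465.1 ± 15.5) and WDR33 (145 ± 5.06), without overlap between neighbors. In THZ531 the order of levels per kilobase was different. CPSF6 (1957 ± 26.7) and FIP1L1 (1864 ± 33.8) were highest, and CPSF3 (1138 ± 105) overlapped CPSF1 (1109 ± 4.33) and SYMPK (1076 ± 14.1). CPSF4 (290.3 ± 18.5 normalized reads per kilobase) came below NUDT21 (758.5 ± 34.1), and CPSF2 (227.2 ± 7.82) and WDR33 (180.2 ± 7.84) remained lowest. The MANE transcripts of CPSF2 and WDR33 have 13003 and 9490 exonic bases, compared with a median of 3336 over expressed genes, and the length over which the authors counted may differ.

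The members also differed in gene structure. WDR33 was the longest gene (110145 bases, with a longest intron of 40007), and CPSF1 the shortest (16105 bases), compared with medians of 27633 bases for the gene and 9028 for the longest intron over 13244 expressed genes. CPSF4 had 18431 bases and 5 AATAAA hexamers in its introns, fewer than the median of 16, whereas CPSF2, with a decrease of similar size, had 50177 bases and 29 such hexamers. FIP1L1 and WDR33, which rose on the deposited scaling (both increases were lost with the same total and RPL34), had 86 and 84. In GENCODE, 4 of 7 transcripts of NUDT21 and 4 of 26 of CPSF7 end inside an intron of the MANE transcript, and 0 of 5 do so for CPSF2 and for CPSF3. Such transcripts were 3 of 13 for CPSF4, 3 of 18 for SYMPK and 3 of 14 for CPSF1. They were 3 of 66 for FIP1L1, 2 of 5 for WDR33 and 2 of 8 for CPSF6. Transcripts were counted without a filter for type or completeness, so such an end need not be a poly(A) site. The share over all expressed genes was not computed. Across the 10 members, Spearman's rho between the log2 fold change and gene length was 0.13, with 0.39 for the longest intron and 0.44 for intronic AATAAA. Over 13246 loci of expressed genes the same rho values were -0.05, -0.05 and -0.04. These are descriptions over genes measured in the same 6 libraries. The table gives 1 value per locus, so that a shortened transcript and a full-length one were not separated.

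The 5 genes that start beside a member did not all take its direction on the deposited scaling. PTCD1, a mitochondrial pentatricopeptide protein gene whose MANE start is separated from that of CPSF4 by 144 bases, had 834.4, 802.6 and 802.7 normalized reads in DMSO and 346.4, 392.2 and 407.3 in THZ531. All THZ531 libraries were lower, and PTCD1 fell together with CPSF4 (log2 fold change -1.09, SE 0.09, limma adjusted p = 2e-08). SDHAF2, an assembly factor of succinate dehydrogenase that starts 148 bases from CPSF7, fell from 3204 ± 82.5 to 2178 ± 142 normalized reads (SD, n = 3, log2 fold change -0.56, limma adjusted p = 1.4e-07), close to the -0.65 of CPSF7. In the other pairs the genes did not both fall or both rise on the deposited scaling. NDUFB1, a subunit gene of respiratory complex I separated by 262 bases from CPSF2, had a log2 fold change of 0.25 (limma adjusted p = 0.0018; 0.01 with the same total and -0.24 with RPL34), while CPSF2 decreased by more than 2-fold. ITGB1BP1, which starts 125 bases from CPSF3, was at 2064 ± 24.9 and 2174 ± 22 normalized reads (log2 fold change 0.07, limma adjusted p = 0.19; -0.17 and -0.42 with the same total and RPL34). OGFOD1, which starts 221 bases from NUDT21, fell (log2 fold change -0.48, limma adjusted p = 6.5e-06), whereas NUDT21 rose on the deposited scaling but not with RPL34.

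**Figure D4:**
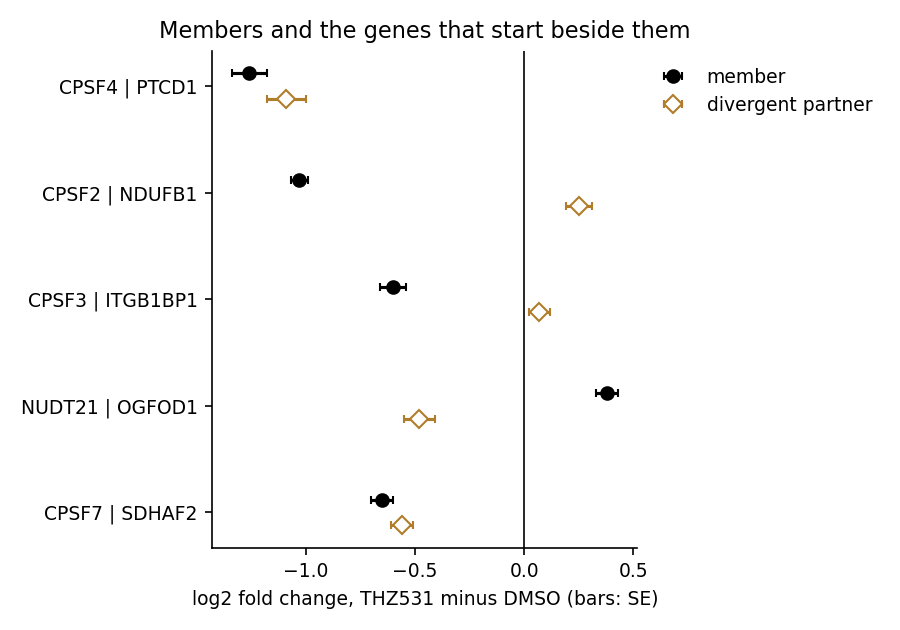
Log2 fold change, THZ531 minus DMSO (deposited scaling, bars are SE from limma), of 5 members (filled circles) and of the gene that starts beside each on the other strand (open diamonds). CPSF4 with PTCD1 and CPSF7 with SDHAF2 lie on the same side of 0, and the other 3 pairs lie on opposite sides, although NUDT21, NDUFB1 and ITGB1BP1 move below 0 when the libraries are scaled to RPL34 and ITGB1BP1 also with the same total.

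Some member loci overlap a gene on the other strand, and the strand setting of the read counting was not given in the sources used here, so that reads in the overlap cannot be told apart. The locus of CPSF4 shares 5436 bases with PTCD1, and FIP1L1 shares 1562 bases with LNX1, which was called decreased (log2 fold change -1.13, limma adjusted p = 5.8e-05) from 203 to 91.1 mean normalized reads. SFT2D3, inside the locus of WDR33, fell from a mean of 411 to 309 (log2 fold change -0.41, limma adjusted p = 0.002) while WDR33 had a log2 fold change of 0.31. CPSF1 shares 12 bases with ADCK5, which rose (log2 fold change 0.60, limma adjusted p = 5.3e-05; 0.11 with RPL34). There were 4 loci without a symbol inside 3 of the members (CPSF4, FIP1L1 and WDR33), and 0 of them passed the minimum for expression. CPSF4L, the paralog of CPSF4, was between 0.7939 and 5.567 normalized reads and was not tested.

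The rest of the 3′ end processing machinery was examined with a list of 28 genes, of which 26 passed the minimum for expression. BARD1 was listed at 0 in every library, and whether this reflects its RNA level or the table was not settled, while CPSF4L was below the minimum. Of the 26 genes, 11 (42.3%) were called regulated, close to the 39.5% of all loci. On the deposited scaling 4 of them increased (15.4%, compared with 15.7% of all loci) and 7 decreased (26.9%, compared with 23.9%). The adjusted p was passed by 21 of the 26 (80.8%, compared with 68.6%), of which 10 were up and 11 down. Their median log2 fold change was 0.05 with the deposited scaling and turned negative with the same total and with RPL34. In the cleavage stimulation factor, which binds the downstream GU-rich element and is joined to CPSF by symplekin, CSTF3 had 3126, 3010 and 3043 normalized reads in DMSO and 1021, 1012 and 878.3 in THZ531. All its THZ531 libraries were far lower, and it decreased more than any CPSF gene (log2 fold change -1.66, SE 0.06, limma adjusted p = 3.7e-12). CSTF2T, the autosomal relative of CSTF2, was also called decreased (-1.12), whereas CSTF2 had a log2 fold change of 0.04 (limma adjusted p = 0.38) that turned negative with the same total and RPL34, and CSTF1 fell by less than 1.5-fold (-0.29).

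In cleavage factor II, CLP1 and PCF11 moved apart. CLP1, the RNA kinase subunit, was called increased (log2 fold change 0.70, limma adjusted p = 2.6e-06; 0.21 with RPL34), and PCF11, the subunit that binds the C-terminal domain of RNA polymerase II, fell just short of the threshold (log2 fold change -0.55, limma adjusted p = 1.5e-05). Of the poly(A) polymerases, PAPOLG was called increased (0.79) and PAPOLA rose slightly (0.16), although PAPOLA turned negative with the same total and RPL34. PABPN1, which binds the growing tail, had a log2 fold change of 0.07 (limma adjusted p = 0.12), also reversed by these scalings. RBBP6, which activates cleavage, decreased from 6039, 5978 and 6232 normalized reads to 2447, 2649 and 2497 (log2 fold change -1.27, limma adjusted p = 1.7e-12). Among the other called genes, PPP1R10, which targets protein phosphatase 1 to the complex, decreased most (log2 fold change -2.98), followed by CASP8AP2 (-2.04), which acts on histone mRNA, SSU72 (-0.97), a phosphatase of the C-terminal domain, and LSM11 (-0.66), a subunit of the histone pre-mRNA processing U7 particle. SCAF8 (0.86) and RPRD1B (0.78), which bind the C-terminal domain, were called increased. With RPL34, 0 of the 26 genes were called increased, and the share of all loci under this scaling was not computed. The decreases of CPSF4 and CPSF2 were therefore smaller than those of CSTF3, CASP8AP2 and PPP1R10, and no member reached the increases of CLP1, PAPOLG, RPRD1B and SCAF8 on the deposited scaling.

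**Figure D5:**
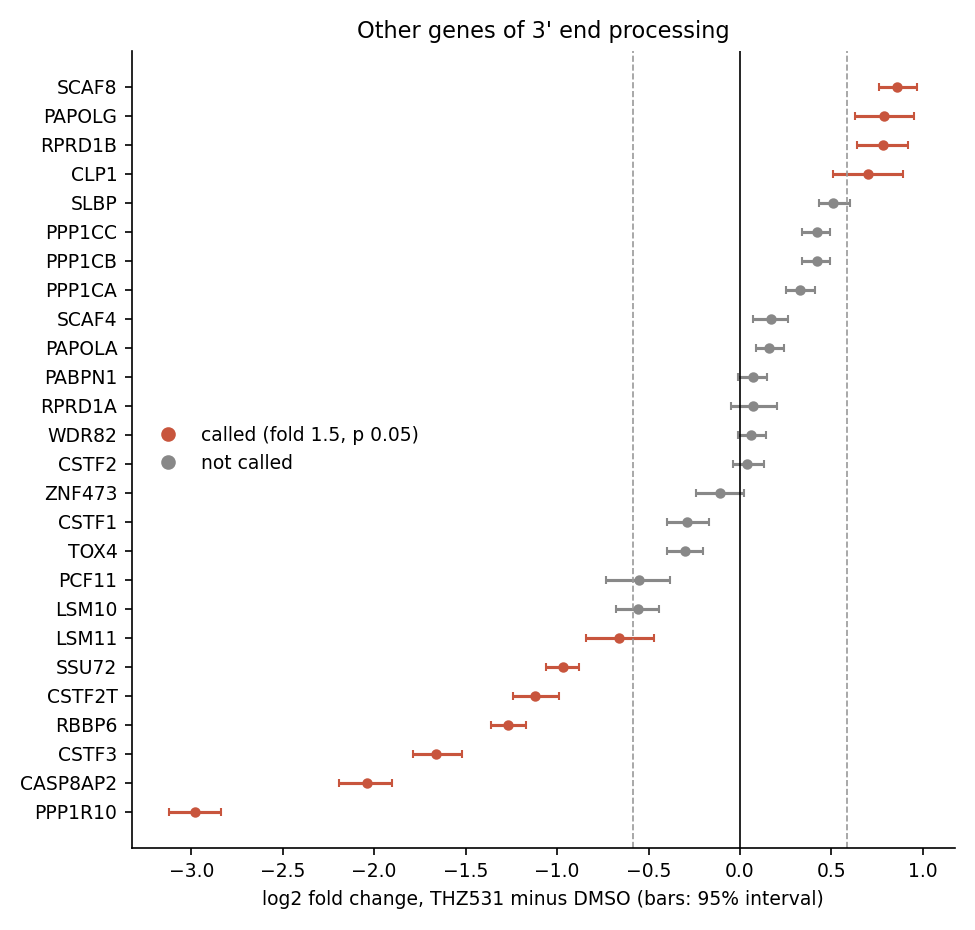
Log2 fold change, THZ531 minus DMSO (deposited scaling, bars are 95% intervals from limma), of the 26 other 3′ end processing genes that passed the minimum for expression; dashed lines mark a fold change of 1.5 and red marks the 11 called genes. Values run from -2.98 (PPP1R10) to 0.86 (SCAF8). Some genes just above 0, among them CSTF2, PABPN1 and PAPOLA, turn negative with the same total and with RPL34.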

How the data were processed

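PolyA plus RNA of 3 DMSO and 3 THZ531 cultures was sequenced. Reads were aligned by the authors against hg38 with STAR (2.7.5a in the submitters' processing notes) and counted on FAST DB genes with featureCounts. They deposited DESeq2-normalized values, a non-negative signal in which each read count is divided by the size factor of its library. All values (100%) in each library were whole multiples of 1 step, within a tolerance of 0.1 reads, so whole reads were recovered.

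The deposited values were tested with limma 3.58.1 (trend) on log2(value + 1), over the 17568 loci that reached 10 in 3 or more libraries, after the procedure was tested on simulated data. Members were matched by symbol; 360 loci join symbols and 20784 carry none. The labels only number the cultures and do not say whether same-numbered ones were paired. The main fit therefore held no replicate block. The members, the other gene list and the tests were chosen with earlier results of these data known. Named are all members, the core factors, and every called gene of the other list; neighboring genes, ratios and structure were added after values were seen. Alternatives were pseudocounts (0.1, 10), minimums (none, 50), scalings (same total, upper quartile, RPL34), thresholds (adjusted p, fold change of 2), limma without a trend, a replicate block, edgeR 4.0.16 and DESeq2 1.42.0 on recovered reads, and leaving out each library. Structure came from GENCODE MANE transcripts and promoters from RefSeq, using R 4.3.3, Python 3.11.15 and scipy 1.17.1.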

Additional observations from a re-analysis of the deposited data

How the results depend on the processing

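Fold threshold and scaling moved the counts most. At a fold change of 2, 2 members and 5 of the other genes were called, instead of 4 and 11. With RPL34, 6 members passed the adjusted p (0 increased), 0 of the other genes were called increased and 12 decreased. With the same total, 2 members increased by the adjusted p and 1 of the other genes was called increased. The shares of all loci were not computed under these settings, so these counts are not read as results about the members. The median log2 fold change became -0.65 (RPL34) and -0.40 (same total) for the members, and -0.44 and -0.19 for the other genes. Log2 fold changes of the opposite sign with RPL34 were -0.32 for CPSF1, -0.16 for FIP1L1, -0.18 for WDR33, -0.12 for NUDT21, -0.45 for CSTF2, -0.33 for PAPOLA, -0.42 for PABPN1, -0.24 for NDUFB1 and -0.42 for ITGB1BP1, and with the same total -0.07 for CPSF1, -0.20 for CSTF2, -0.08 for PAPOLA and -0.17 for both PABPN1 and ITGB1BP1. These shifts follow from the scaling itself, which moves all loci together. The settings for genes beside the members were added after seeing the data. With no minimum, 1 locus without a symbol inside a member was called. Relative to the other members of the subcomplex, CPSF3 (0.16) and SYMPK (0.32) were higher in THZ531, where CPSF2 fell further. With the replicate block 4 members were called, and no member's call changed. Correlations of same-numbered libraries were 0.002, 0.019 and -0.039. Leaving out 1 library kept every member's direction, with CPSF3 between -0.66 and -0.53. With 3 cultures per group, the calls at 1.5-fold that changed among the members were those of CPSF3, on leaving out a library, and of SYMPK, with the same total and RPL34.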
